A study of Rattus norvegicus with 47 samples.

Results

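The genes described here encode the subunits of the proteasome and the proteins that assemble, activate or inhibit it. They were taken as every gene whose symbol begins with Psma, Psmb, Psmc, Psmd, Psme, Psmf or Psmg in the annotation of the array, read through probe sets that carry a single symbol, and each gene was represented by its probe set of highest mean signal over all arrays. This gave 44 genes, on 53 probe sets, of the 10898 genes with such a probe set on the arrays. The signal filter kept 43 of them. The gene below it was Psmc3ip, a protein of meiotic recombination that shares the prefix because it binds the subunit Psmc3 and is no subunit itself. The same holds for Psme3ip1, a partner of the activator Psme3, which was kept. Probe sets that name several genes were left out, so Psmb6 and Psme3 are not analysed here. The immunoproteasome subunits Psmb8 and Psmb9 are also not analysed here.

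The proteasome is the barrel-shaped protease that degrades proteins tagged with ubiquitin in the cytosol and nucleus. Its core particle is a stack of rings: outer alpha rings, which form the gate, and inner beta rings, which hold the proteolytic sites. The regulatory particle that caps the core contains a ring of ATPases that unfold the substrate and pull it in, together with non-ATPase subunits that bind ubiquitin chains and cut them off. Under interferon, cells exchange the catalytic beta subunits for immunoproteasome forms and add the activator made of Psme1 and Psme2. In neurons the proteasome takes part in protein quality control and in the turnover of synaptic proteins.

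The tissue was medial prefrontal cortex, taken from Wistar rats (an outbred laboratory strain) on postnatal day 30, 40, 60 or 80, written P30, P40, P60 and P80 here. Some rats grew up in social housing (Soc) and the others alone (Iso). Socially reared rats gave 6 arrays at each age. Isolated rats gave 6 arrays at P30, P60 and P80 and 5 at P40, and arrays 3 and 4 of Iso P30, which were closer to each other than other replicates were, entered as their mean, so Iso P30 had n = 5 and 46 samples were fitted. Sex, the age at which isolation began and the number of animals behind a sample are not given in the sources used here, so p-values refer to the spread among these samples, part or all of which may be technical.

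Values are log2 signals, and every difference is given on that scale, as Iso minus Soc for rearing and as the later minus the earlier age for time. A gene is said to have risen or fallen where the moderated test in limma gave a Benjamini-Hochberg adjusted p under 0.05 over all 12149 probe sets kept by the filter. The tissue is a mixture of cells, in which fewer cells of a type and less RNA per cell cannot be told apart. Markers of neurons in general (5 of 5 listed) and of excitatory neurons (3 of 5 listed) passed the signal filter. Over the 43 proteasome genes the profile of Soc P60 lay closer to Iso P80 (root mean square distance of group means 0.148) than to any other group, and Iso P80 was likewise closest to Soc P60. An exchange of group labels was not tested, and all comparisons below take the labels as given.

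Rearing differences were small in size and differed in direction between ages. At P60, 23 proteasome genes were higher in isolated rats and 7 were lower. At P80 the balance was the other way, with 8 higher and 18 lower. At P30 and P40 fewer genes passed, with 4 higher and 9 lower at P30 and 4 higher and 14 lower at P40. Over all probe sets tested, 7.61% were higher and 12.3% lower at P30, 13.8% and 14.6% at P40, 23.7% and 29.3% at P60, and 23.5% and 24.2% at P80. The passing share of the 43 genes was 30.2% at P30 against 19.9% of all probe sets, 41.9% against 28.3% at P40, 69.8% against 53.1% at P60 and 60.5% against 47.7% at P80. The median difference of the 43 genes was -0.05 at P30, -0.02 at P40, 0.13 at P60 and -0.10 at P80, beside 0.00, 0.02, -0.03 and -0.00 for the 7898 genes tested. After quantile normalization of the arrays the split at P30 was 6 higher and 7 lower, so no direction is given for the genes as a group at that age.

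**Figure D1:**
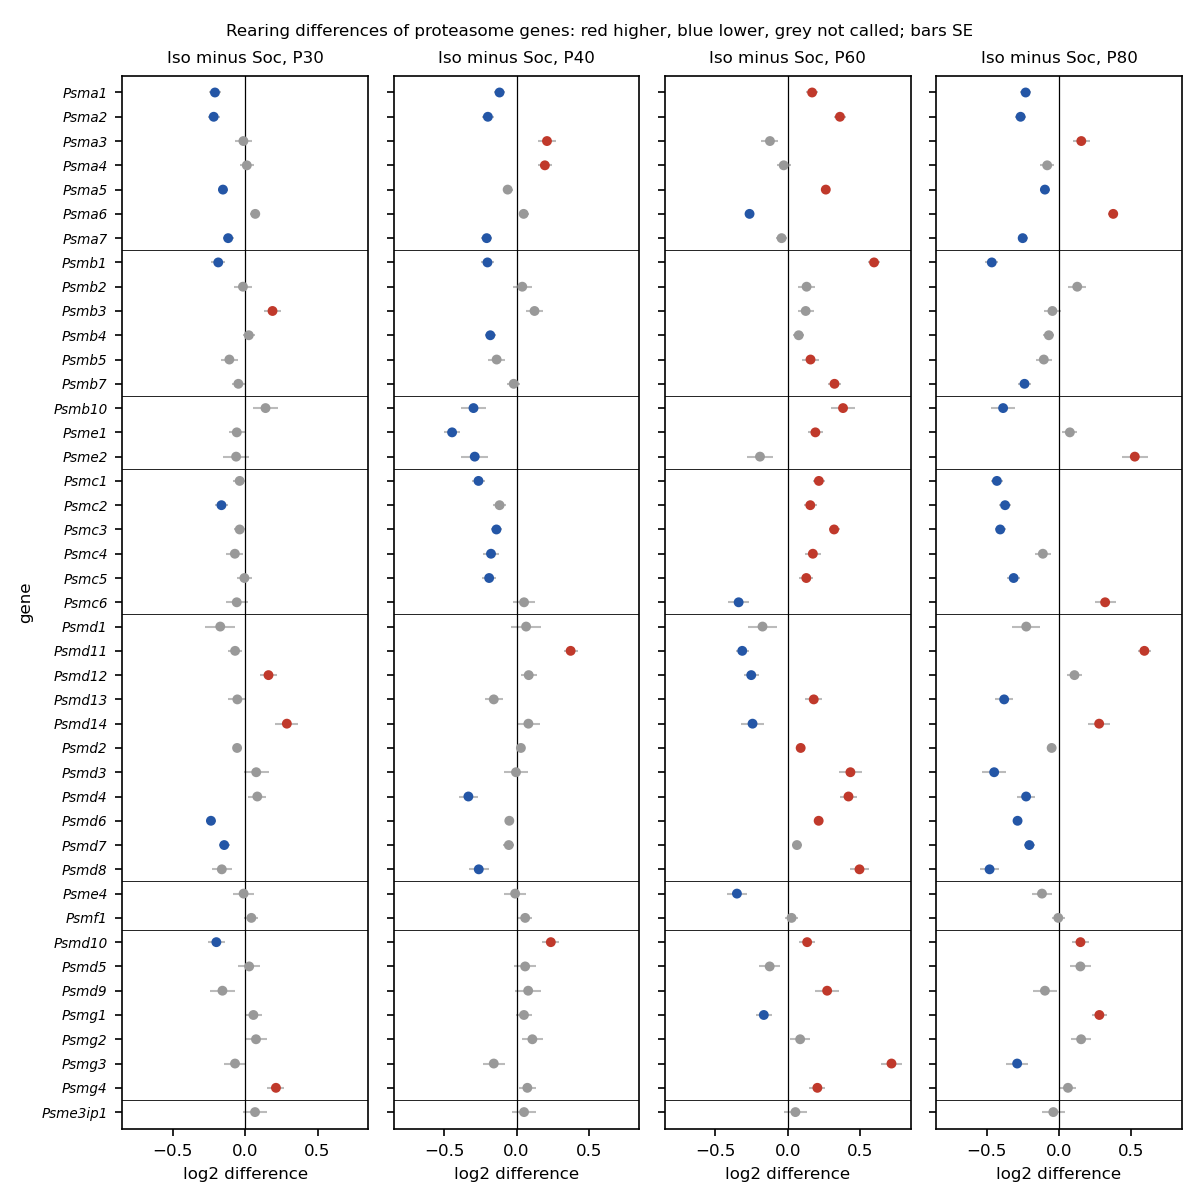
Rearing differences of the 43 proteasome genes at each age, in panels from P30 to P80. Each point is a gene, placed by its difference of isolated minus social on the log2 scale with its standard error as a bar, in red where it passed as higher, in blue where it passed as lower and in grey where it did not pass. At P60, 23 of the 30 coloured points lie to the right of 0, and at P80, 18 of 26 lie to the left.

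The Gapdh ratio is the signal of the 3' control probe set over that of the 5' one, a measure of RNA integrity and labelling. It differed between the rearings too. It was 2.03 ± 0.15 (SD, n = 6) in Soc P60 and 1.36 ± 0.039 (n = 6) in Iso P60, and 1.89 ± 0.091 in Soc P80 and 1.57 ± 0.091 in Iso P80 (n = 6 each). At P30 it was 1.52 ± 0.042 (n = 6) in Soc and 1.34 ± 0.064 (n = 5) in Iso, and at P40 it was 1.61 ± 0.091 (n = 6) and 1.87 ± 0.097 (n = 5). With the Gapdh ratio as a covariate, 15 proteasome genes were higher and 3 lower at P60, where 32.2% of all probe sets then passed. Its part in the differences was not tested further.

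Summed signals of some cell type marker lists also separated the rearings at P60 and P80. The excitatory neuron markers with a probe set (4 of 5 listed) summed to 2395 to 2532 in Soc P60 and 2823 to 2948 in Iso P60, and to 2940 to 3246 in Soc P80 and 2601 to 2785 in Iso P80. Its members did not move together: at P60 Slc17a7 rose by 0.55, Camk2a fell by 0.10 and Neurod6 stood at -0.03, and at P80 Slc17a7 and Camk2a fell, by 0.30 each, and Neurod6 rose by 0.16. The sum of the interneuron markers (4 of 5) ran the other way, with 2510 to 2731 in Soc P60, 2215 to 2485 in Iso P60, 2307 to 2516 in Soc P80 and 2735 to 2972 in Iso P80. Within it, Gad1 and Vip fell at P60 (-0.26 and -0.45) while Pvalb and Sst rose (0.82 and 0.13), and at P80 Pvalb fell (-0.38) while Gad1, Vip and Sst rose. The sum of the astrocyte markers (5 of 5) also ran against that of the excitatory neurons, with 8018 to 9005 in Soc P60, 7081 to 7927 in Iso P60, 6862 to 7827 in Soc P80 and 8152 to 9258 in Iso P80. Of the astrocyte markers, 3 fell and none rose at P60, and 4 rose and 1 fell at P80. The blood markers (2 of 3) moved as the majority of the proteasome genes did, with 775 to 943 in Soc P60, 1065 to 1231 in Iso P60, 780 to 912 in Soc P80 and 555 to 681 in Iso P80; Hbb, a haemoglobin chain, rose by 0.45 and fell by 0.47. None of these ranges overlapped between rearings at P60 or at P80. The sums of the other cell type marker lists overlapped between rearings at both ages. That of neurons in general (5 of 5) ran from 6708 to 8073 in Soc P60 and from 6565 to 7511 in Iso P60. At P80 it ran from 6323 to 7481 in Soc and from 7249 to 8713 in Iso.

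Marker lists differed at the younger ages too, among them some of the same lists. At P30 the astrocyte sum ran from 8398 to 8729 in Soc and from 7732 to 8123 in Iso. That of neurons in general ran from 7903 to 8361 and from 6938 to 7632, and that of interneurons from 2450 to 2613 and from 2275 to 2420. The excitatory neuron sum at P40 ran from 3074 to 3349 in Soc and from 2453 to 2623 in Iso. Other sums, such as that of the blood markers, overlapped at both ages. Ttr, the transthyretin of choroid plexus and the marker of that list that passed the signal filter, fell by 3.11 at P30 and rose by 1.97 at P40. All 4 oligodendrocyte markers tested fell at P40, with a median of -0.22. The part of any of these cell types in the differences of the proteasome genes was not tested.

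The alpha ring was represented by all of its 7 subunits. At P60, Psma1, Psma2 and Psma5 rose and Psma6 fell in isolated rats, and at P80 the first set fell and Psma6 rose. Psma2 stood at 8.10, 8.20 and 8.25 (lowest, median and highest of 6 samples) in Soc P60 and at 8.47, 8.54 and 8.63 in Iso P60. In Soc P80 it stood at 8.44, 8.54 and 8.61, and in Iso P80 at 8.20, 8.27 and 8.35. Among the groups of these ages the high ones were thus Iso P60 and Soc P80, while the highest mean of all 8 groups was that of Soc P30 (8.60). The rearings did not overlap at either age (0.36 ± 0.040 (SE), 1.28-fold higher, adjusted p = 2e-10 at P60, and -0.27 ± 0.040, 1.2-fold lower, adjusted p = 3.06e-07 at P80).

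Psma6 was the mirror image. It stood at 10.15, 10.22 and 10.29 in Soc P60 against 9.93, 9.94 and 10.05 in Iso P60, and at 9.78, 9.83 and 9.98 in Soc P80 against 10.15, 10.21 and 10.31 in Iso P80. Every isolated sample was below every social sample at P60 and above every social sample at P80, with differences of -0.26 ± 0.033 (adjusted p = 6.15e-09) and 0.37 ± 0.033 (adjusted p = 6.45e-13). Psma1 passed at every age. Its samples in Soc P30 lay between 8.77 and 8.81 and those in Iso P30 between 8.42 and 8.69, a fall of 0.21 without overlap (adjusted p = 0.000184). It also fell at P40 (-0.12) and P80 (-0.23) and rose at P60 (0.17). Psma2 fell at P30 as well, from 8.60 ± 0.071 (SD, n = 6) to 8.38 ± 0.070 (n = 5), by 0.22 (adjusted p = 0.000126), and at P40 by 0.20. Psma3 and Psma4 stood apart from these at P40, where both rose, by 0.21 (adjusted p = 0.00762) and 0.20 (adjusted p = 0.00212). Psma7 fell at P30, P40 and P80, by 0.12, 0.21 and 0.25, and Psma5 fell at P30 and P80, by 0.15 and 0.10.

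**Figure D2:**
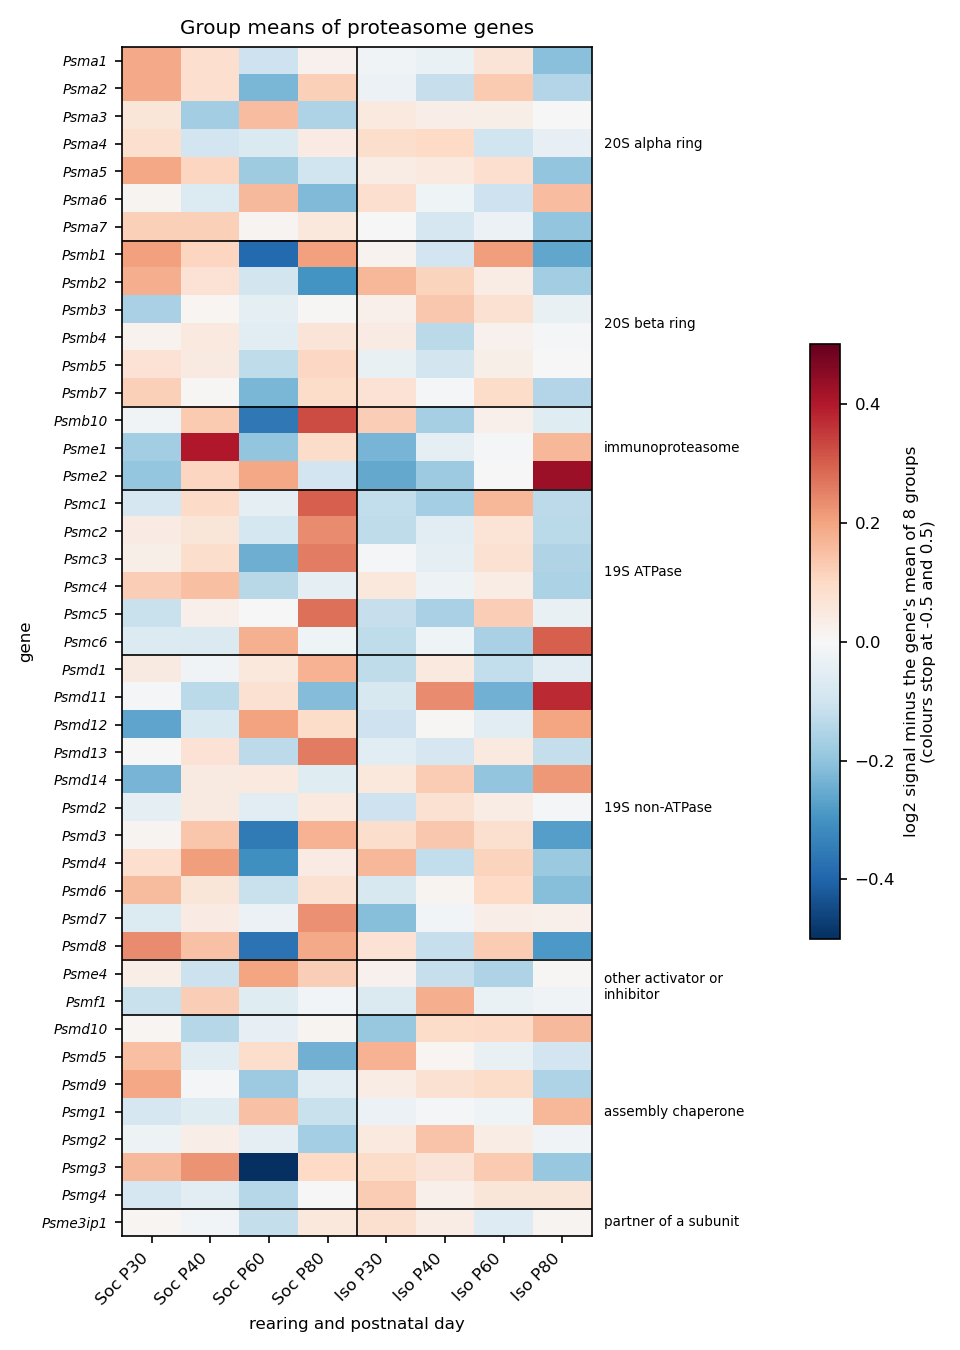
Group means of the proteasome genes, grouped by role in rows and by rearing and age in columns, each as the difference from the mean of the gene's 8 group means on the log2 scale, with colours that stop at 0.5 in either direction. Most rows of the core and the ATPases are below their own mean in Soc P60 and in Iso P80, and a smaller set, with Psma6, Psmc6 and Psmd11, is above it in the same columns.

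Among the 6 beta ring subunits of the constitutive core, only Psmb1 and Psmb7 passed at both P60 and P80. Psmb1, a beta subunit without a proteolytic site, had the smallest adjusted p of the 43 genes in the interaction of rearing with age (moderated F test, adjusted p = 1.98e-18). Its samples lay at 8.87, 8.97 and 9.11 in Soc P60 and at 9.53, 9.58 and 9.69 in Iso P60. At P80 they lay at 9.47, 9.59 and 9.69 in Soc and at 9.0, 9.15 and 9.19 in Iso. Soc P60 and Iso P80 were the low groups, and there was no overlap between rearings at P60 (1.51-fold higher in Iso, 0.60 ± 0.045, adjusted p = 2.32e-15) or at P80 (1.38-fold lower, -0.46 ± 0.045, adjusted p = 5.41e-12). At P30 and P40 Psmb1 was lower in isolated rats, by 0.19 and 0.20. Psmb7, the trypsin-like catalytic subunit, rose by 0.32 at P60 and fell by 0.24 at P80. Psmb5, the chymotrypsin-like catalytic subunit, passed at P60 alone (0.16). Psmb3 rose at P30, from 9.12 ± 0.063 (n = 6) to 9.31 ± 0.13 (n = 5), by 0.19 (adjusted p = 0.0182), with overlapping samples, and did not pass without array 2 or array 5 of Iso P30 (adjusted p = 0.0612 and 0.0786). Psmb4 fell at P40 (-0.18), and Psmb2 passed at no age.

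The promoter of Psmb1 is given here, with that of Psmd11 below, because these were the genes with the smallest interaction p in opposite directions. The window holds 250 bases before and 50 from the transcription start of the RefSeq entry (chr1:65134721-65135020, minus strand, build GRCr8), written 5′ to 3′, and capitals mark a match to a searched motif, here CCAAT on the opposite strand at position -237 from the start.
Psmb1: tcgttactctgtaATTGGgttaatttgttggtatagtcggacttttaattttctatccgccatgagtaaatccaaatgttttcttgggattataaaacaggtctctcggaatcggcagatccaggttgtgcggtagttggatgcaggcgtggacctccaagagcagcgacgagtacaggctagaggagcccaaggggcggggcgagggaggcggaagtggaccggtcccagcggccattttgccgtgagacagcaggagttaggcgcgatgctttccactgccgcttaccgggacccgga

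All 6 ATPases of the regulatory particle passed at P60. Psmc1, Psmc2, Psmc3, Psmc4 and Psmc5 rose, by 0.21, 0.16, 0.32, 0.17 and 0.13, and Psmc6 fell by 0.34. At P80, 4 of them fell, Psmc4 did not pass (-0.11), and Psmc6 rose by 0.32. Psmc3 lay at 8.24, 8.35 and 8.41 in Soc P60 and at 8.50, 8.69 and 8.77 in Iso P60. At P80 it lay at 8.81, 8.84 and 8.88 in Soc and at 8.37, 8.45 and 8.48 in Iso. Its samples did not overlap at either age, and the differences were 0.32 ± 0.038 (adjusted p = 1.79e-09) and -0.41 ± 0.038 (adjusted p = 3.5e-12). Psmc1 fell at P80 from 9.11 ± 0.050 in Soc to 8.68 ± 0.090 in Iso (n = 6 each), 1.35-fold, with adjusted p = 5.24e-12, and the samples did not overlap. At P40 the same gene was lower by 0.26, with Psmc3, Psmc4 and Psmc5 at -0.14, -0.18 and -0.19.

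Psmc6 went against the other ATPases. Its samples lay at 8.54, 8.75 and 8.82 in Soc P60 and at 8.17, 8.41 and 8.59 in Iso P60, which overlapped, and at 8.37, 8.54 and 8.65 in Soc P80 and 8.60, 8.85 and 8.99 in Iso P80, which also overlapped (adjusted p = 0.000122 and 0.000332). The other probe sets of Psmc6 were lower at P60 too, by 0.29 and 0.41 (adjusted p = 0.0211 and 0.000316), and did not pass at P80 (0.11 and 0.02). With the Gapdh ratio as a covariate the fall at P60 was 0.12 and did not pass (adjusted p = 0.631), nor did that of Psma6 (-0.10, adjusted p = 0.304).

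Of the 11 non-ATPase subunits, 6 rose and 3 fell at P60, and 2 rose and 6 fell at P80. Psmd11, a subunit of the lid, was high where most others were low. Its samples lay at 8.54, 8.61 and 8.63 in Soc P60 and at 8.13, 8.30 and 8.36 in Iso P60. At P80 they lay at 8.17, 8.27 and 8.55 in Soc and at 8.81, 8.89 and 8.97 in Iso. The rearings did not overlap at either age, with Iso below Soc at P60 (1.24-fold, -0.31 ± 0.046, adjusted p = 1.71e-07) and above it at P80 (1.51-fold, 0.59 ± 0.046, adjusted p = 1.39e-14). At P40 the 5 isolated samples, at 8.61, 8.69, 8.80, 8.82 and 8.86, were all above the social samples, at 8.30, 8.40 and 8.45, a rise of 0.37 (adjusted p = 4.87e-08). A second probe set of Psmd11 fell by 0.20 at P60 (adjusted p = 0.0022), did not pass at P80 (0.05, adjusted p = 0.481) and stood at -0.13 at P40 (adjusted p = 0.0983), so the rises at P40 and P80 rest on the brighter probe set.

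The promoter window of Psmd11 (chr10:65932093-65932392, plus strand, GRCr8) held none of the searched motifs and is therefore all in lower case.
Psmd11: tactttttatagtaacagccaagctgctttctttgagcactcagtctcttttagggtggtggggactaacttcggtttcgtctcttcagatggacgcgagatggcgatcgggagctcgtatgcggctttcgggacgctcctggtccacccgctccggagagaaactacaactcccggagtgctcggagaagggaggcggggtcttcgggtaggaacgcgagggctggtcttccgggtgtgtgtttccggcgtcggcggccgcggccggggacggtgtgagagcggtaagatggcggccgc

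Psmd8 and Psmd3, both subunits of the lid, showed the opposite course. Psmd8 lay at 7.32, 7.44 and 7.60 in Soc P60 and at 7.67, 7.98 and 8.10 in Iso P60, and at 7.92, 8.01 and 8.11 in Soc P80 and 7.37, 7.53 and 7.66 in Iso P80. It was 1.41-fold higher in isolated rats at P60 (adjusted p = 2.04e-08) and 1.39-fold lower at P80 (adjusted p = 5.14e-08), without overlap. Psmd3 rose by 0.43 at P60 (7.06 ± 0.10 to 7.49 ± 0.10, adjusted p = 1.78e-05) and fell by 0.45 at P80 (7.58 ± 0.15 to 7.13 ± 0.083, n = 6 in each group, adjusted p = 1.21e-05). With the Gapdh ratio as a covariate the rise of Psmd3 at P60 did not pass (adjusted p = 0.172). Psmd4, which binds ubiquitin chains, fell at P40 from 7.76 ± 0.12 (n = 6) to 7.43 ± 0.095 (n = 5), by 0.33 (adjusted p = 7.15e-05), rose by 0.42 at P60 and fell by 0.23 at P80. Psmd6, a further lid subunit, already differed at P30. There its 5 isolated samples, at 9.25, 9.29, 9.29, 9.32 and 9.39, were all below the social samples, at 9.52, 9.54 and 9.58, a fall of 0.24 ± 0.033 (adjusted p = 5.85e-07). It rose by 0.21 at P60 and fell by 0.29 at P80, again without overlap.

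**Figure D3:**
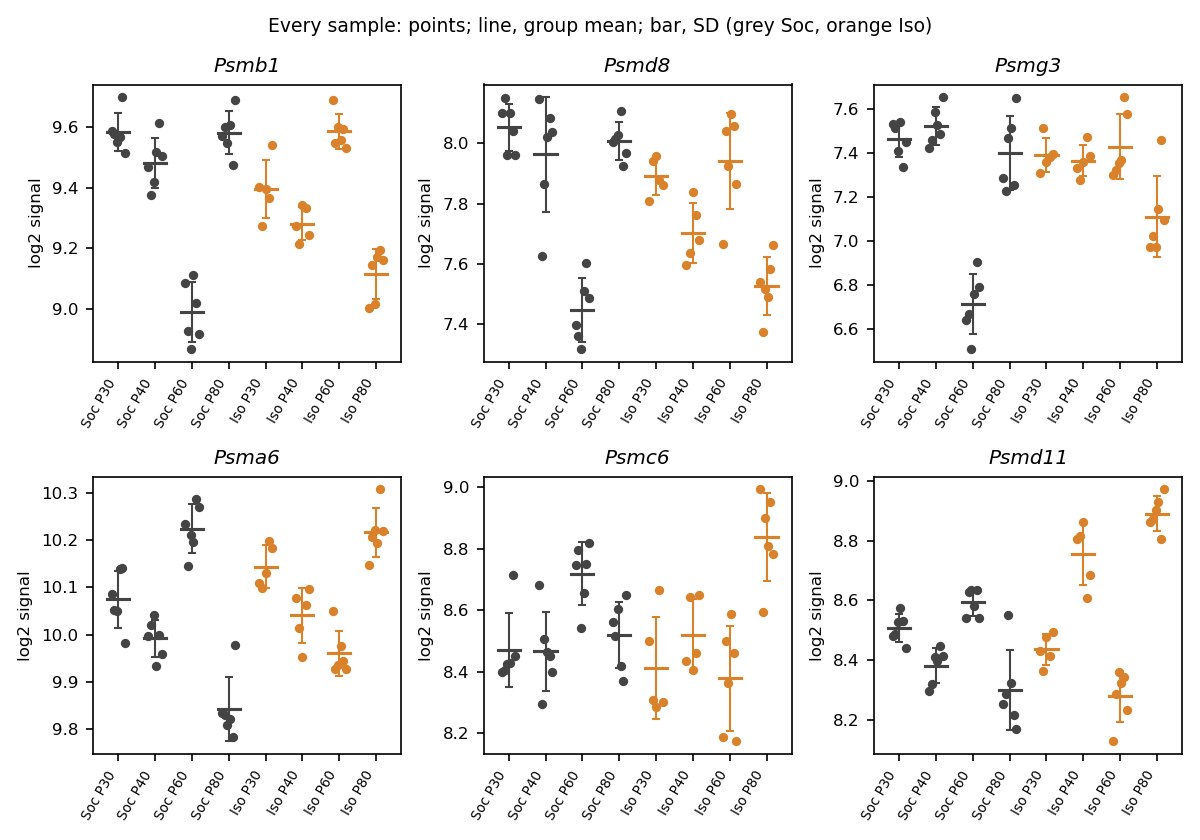
Log2 signals of named proteasome genes in each of the 46 samples, by rearing and age, with a line at the group mean and a bar for the SD. The axes do not start at 0. Psmb1 is low and Psmd11 is high in Soc P60 and in Iso P80, and Psmd11 is also high in Iso P40. The samples of the 2 rearings do not overlap for either gene at P60 or P80.

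Psmd14, the deubiquitinase of the lid, cannot be given a direction. Its brightest probe set rose at P30 by 0.29, with samples at 8.70, 8.70, 8.70, 8.73 and 9.11 in Iso against 8.27, 8.53 and 8.67 in Soc (adjusted p = 0.00799), fell at P60 by 0.24 and rose at P80 by 0.28. The next probe set passed at every age, at -0.24, -0.29, 0.30 and -0.41 from P30 to P80 (adjusted p between 1.47e-08 and 0.00171), which was opposite to the brightest at P30, P60 and P80. The third fell at P60 (-0.33) and at P80 (-0.34). Without the high array of Iso P30 the rise of the brightest probe set at that age was 0.21 and did not pass (adjusted p = 0.0688), nor did it with the Gapdh ratio as a covariate (adjusted p = 0.0558). Of the scaffold subunits, Psmd1 passed at no age and Psmd2 at P60 alone (0.09). Psmd12 rose at P30 by 0.16 (adjusted p = 0.0345), which did not pass without array 1, 2 or 3 of Soc P30 or array 1 or 5 of Iso P30 (adjusted p 0.0551 to 0.0991) or with the Gapdh ratio as a covariate (adjusted p = 0.371), and fell at P60 by 0.25. Psmd13 rose by 0.18 at P60 and fell by 0.38 at P80, and Psmd7 fell by 0.15 at P30 and by 0.21 at P80, on the brighter of its probe sets; the other did not pass at either age (0.05 and 0.08).

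The assembly chaperones bring the rings together and leave the finished particle. Psmg3, which helps to build the alpha ring, had the widest range of group means of the 43 genes. It lay at 6.51, 6.71 and 6.90 in Soc P60 and at 7.30, 7.36 and 7.65 in Iso P60, and the mean of Soc P60 (6.71 ± 0.14, n = 6) was below those of the other 7 groups, which ran from 7.11 to 7.52. The difference at P60 was 0.72 ± 0.074, 1.64-fold (adjusted p = 3.56e-11). Psmg3 fell at P80 by 0.29. Psmg4, its partner, rose at P30 by 0.21 (7.60 ± 0.11 (n = 6) to 7.82 ± 0.16 (n = 5), adjusted p = 0.00772), which did not pass without array 2 of Iso P30 (adjusted p = 0.0661), and at P60 by 0.20. Psmg1 ran with Psma6 and Psmc6, at -0.17 at P60 and 0.28 at P80, and Psmg2 passed at no age. Psmd10, which chaperones the ATPase ring, passed at every age and was the only gene to rise at both P60 (0.13) and P80 (0.15). It fell at P30 by 0.20 (adjusted p = 0.0137) and rose at P40 by 0.24, with 5 isolated samples at 7.90, 7.94, 7.94, 7.99 and 8.08 beside social samples at 7.48, 7.76 and 7.90 (adjusted p = 0.00216); the ranges met at 7.90. The fall at P30 did not pass without array 2 of Soc P30 or array 1 or 2 of Iso P30 (adjusted p = 0.0527, 0.084 and 0.063). Psmd9, a further chaperone of the ATPase ring, rose at P60 alone, by 0.27, and Psmd5 passed at no age (0.03, 0.06, -0.13 and 0.15 from P30 to P80). Among the remaining regulators, the nuclear activator Psme4 fell at P60, from 6.36, 6.39 and 6.55 in Soc to 6.0, 6.09 and 6.17 in Iso, by 0.35 (adjusted p = 5.69e-05), and the inhibitor Psmf1 passed at no age. The second probe set of Psme4 stood at -0.24 at P60 and did not pass (adjusted p = 0.0584), and the brighter one did not pass with the Gapdh ratio as a covariate (adjusted p = 0.0624).

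The comparisons at P60 and P80 share no samples, so their calls can be set against each other. Of the 43 genes, 16 rose at P60 and fell at P80, a course taken by 10.5% of all probe sets. The reverse course was taken by 5 genes (Psma6, Psmc6, Psmd11, Psmd14 and Psmg1) and by 13.7% of all probe sets, each gene read on its brightest probe set. The other probe sets of Psmc6 and Psmd11 did not pass at P80, and those of Psmd14 took other courses, as given above. Only Psmd10 passed in the same direction at both ages, beside 4.99% of all probe sets. The 16 comprised 3 alpha subunits, 2 beta subunits, Psmb10, 4 ATPases, 5 non-ATPase subunits and Psmg3. Across the 43 genes the differences at P60 and at P80 had opposite signs for 34 genes (79.1%), against 67.7% of the 7898 genes tested, and their Pearson correlation was -0.729 against -0.406. These are descriptions across genes, which share the arrays of each group and are not independent replicates. Of the probe sets behind the 16 genes, 8 were designed on a RefSeq mRNA, and of those behind the 5 genes, 1 was. Of those behind the 9 genes that passed at neither age, 4 were. The part of probe design in these courses was not tested.

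**Figure D4:**
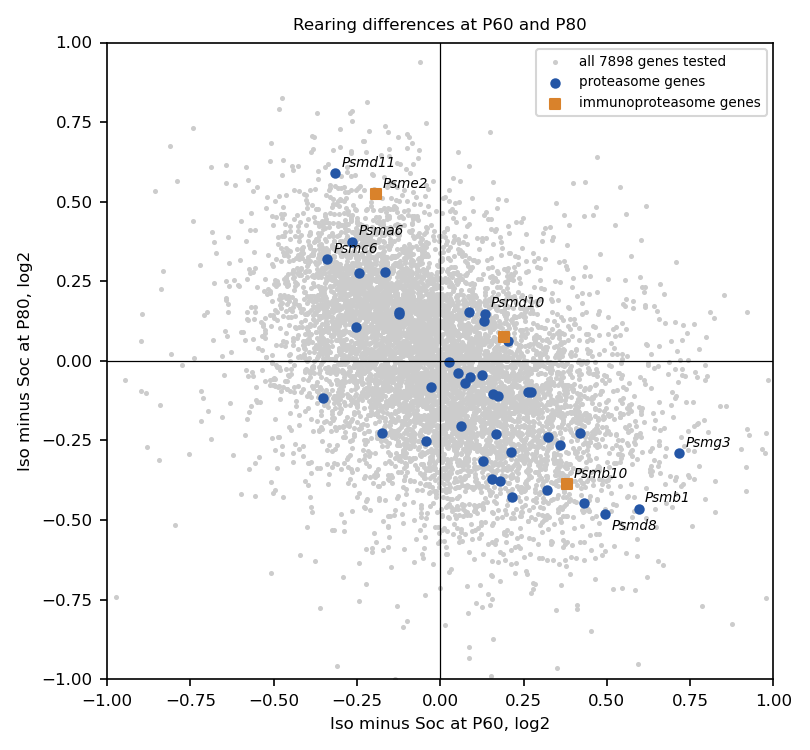
Difference of isolated minus social at P60 on the horizontal axis against that at P80 on the vertical axis, both on the log2 scale, for the 43 proteasome genes in colour and the 7898 genes tested in grey (21 of which lie outside the axes). Coloured points run from the upper left, with Psmd11 and Psma6, to the lower right, with Psmb1, Psmd8 and Psmg3.

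The interaction of rearing with age passed for 36 of the 43 genes (83.7%), beside 72.2% of all probe sets. The smallest adjusted p were those of Psmb1, Psmd11 (2.9e-16), Psmc3 (1.56e-14), Psma6 (1.56e-14), Psma2 (9.6e-14) and Psmd6 (2.47e-13). The genes without an interaction were Psmb2, Psmd1, Psmf1, Psmd5, Psmg2, Psmg4 and Psme3ip1, with adjusted p from 0.111 to 0.879, and all of them but Psmg4 passed at no age.

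The immunoproteasome was represented by Psmb10, the inducible counterpart of Psmb7, and by Psme1 and Psme2, which together form the interferon-inducible activator ring. These 3 genes did not move together. At P40 all of them fell in isolated rats. At P60 Psmb10 and Psme1 rose and Psme2 did not pass, and at P80 Psme2 rose, Psmb10 fell and Psme1 did not pass. None passed at P30, where the differences were 0.14, -0.06 and -0.06.

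Psme1 differed most at P40. Its 5 isolated samples stood at 7.55, 7.56, 7.63, 7.64 and 7.71, all below the social samples at 8.0, 8.05 and 8.18, a 1.36-fold difference (-0.45 ± 0.055, adjusted p = 1.44e-08). Soc P40 was the group that stood apart, since the other 7 group means lay between 7.43 and 7.82. Psmb10 at P40 stood at 6.21, 6.22, 6.46, 6.57 and 6.60 in Iso and at 6.61, 6.70 and 6.82 in Soc, without overlap (-0.30 ± 0.085, adjusted p = 0.00656). Psme2 fell from 7.17 ± 0.20 (n = 6) to 6.88 ± 0.18 (n = 5), by 0.29 with overlap (adjusted p = 0.0152), and did not pass without array 5 of Iso P40 (adjusted p = 0.0825) or with the Gapdh ratio as a covariate (adjusted p = 0.0919).

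At P60 Psmb10 stood at 6.07, 6.21 and 6.44 in Soc and at 6.46, 6.63 and 6.68 in Iso (0.38 ± 0.081, adjusted p = 9.96e-05), and at P80 at 6.82, 6.89 and 7.05 in Soc and 6.37, 6.52 and 6.63 in Iso (-0.39 ± 0.081, adjusted p = 0.000101). Psmb10 was thus 1 of the 16 genes that were high in Iso at P60 and low at P80, as Psmb7 was. With the Gapdh ratio as a covariate its fall at P80 was 0.19 and did not pass (adjusted p = 0.165). Psme2 went the other way at P80, from 6.87, 6.98 and 7.07 in Soc to 7.32, 7.50 and 7.64 in Iso, 1.44-fold higher without overlap (adjusted p = 3.03e-06). Psme1 stood at 7.75 ± 0.095 and 7.82 ± 0.041 there (n = 6 each, adjusted p = 0.241), and at P60 it rose by 0.19 (adjusted p = 0.00195), a difference that did not pass with the Gapdh ratio as a covariate (adjusted p = 0.184).

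**Figure D5:**
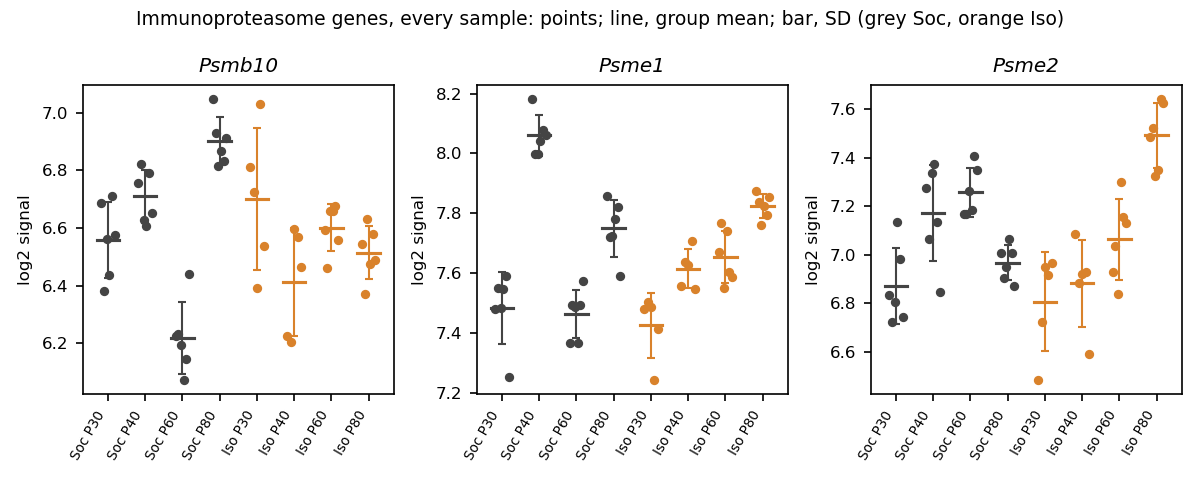
Log2 signals of the 3 immunoproteasome genes in each sample, by rearing and age, with a line at the group mean and a bar for the SD. The axes do not start at 0; Psme1 is highest in Soc P40, Psme2 in Iso P80 and Psmb10 in Soc P80.

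Genes induced by interferon were read beside them from a list of 22, of which 8 passed the signal filter. At P40, 6 of the 8 fell in isolated rats and none rose, with a median of -1.11, where 14.6% of all probe sets fell and 13.8% rose. At P80, 6 rose and none fell, with a median of 0.82, where 23.5% of all probe sets rose and 24.2% fell. At P30 and P60 1 gene fell and none rose, Irf7 at P30 (-0.62) and Ifit2 at P60 (-0.38). Isg15, a ubiquitin-like protein, stood at -2.12 at P40 and 1.84 at P80, and B2m, the light chain of class I histocompatibility molecules, at -0.40 and 0.47. The mean of Isg15 in Soc P80 was 4.44 ± 0.62 (SD, n = 6), under the limit of the filter. The immunoproteasome genes thus fell beside these genes at P40, and at P80 Psme2 rose beside them while Psmb10 fell. The signal was also summed over the listed genes with a probe set (16 of 22). At P40 the sum ran from 3230 to 3334 in Soc and from 1891 to 2078 in Iso. At P80 it ran from 1624 to 1803 in Soc and from 2383 to 2511 in Iso. The sums at P30 were 2061 to 2178 in Soc and 1936 to 2055 in Iso. Those at P60 were 1890 to 2075 in Soc and 1914 to 2122 in Iso. The sums of Soc P40 thus exceeded those of every other group, while those of Iso P40 lay within the span of the P30 and P60 groups.

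Microglia, the resident immune cells of the brain, are known to express immunoproteasome genes. Their markers with a probe set (7 of 8 listed) summed to 1374 to 1562 in Soc P40, 1180 to 1261 in Iso P40, 939 to 1071 in Soc P60, 1030 to 1182 in Iso P60, 1063 to 1169 in Soc P80 and 1008 to 1098 in Iso P80. Of the 6 that passed the signal filter, 4 fell and 1 rose at P40, 3 rose and 1 fell at P60, and 1 rose and 2 fell at P80. The part of microglial RNA in the immunoproteasome differences was not tested.

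Promoters of the immunoproteasome genes are shown because the letters of the interferon-stimulated response element, searched as GAAA, a gap of 2 bases and GAAA, lie in some of them. Psmb10 (chr19:50743243-50743542, minus strand) holds matches that start at -73 and -17, Psme2 (chr15:33052702-33053001, minus strand) holds a match that starts at -53, and Psme1 (chr15:33038721-33039020, plus strand) holds none in this window. Each is 250 bases before and 50 from the start site, from RefSeq on GRCr8, with matches in capitals.
Psmb10: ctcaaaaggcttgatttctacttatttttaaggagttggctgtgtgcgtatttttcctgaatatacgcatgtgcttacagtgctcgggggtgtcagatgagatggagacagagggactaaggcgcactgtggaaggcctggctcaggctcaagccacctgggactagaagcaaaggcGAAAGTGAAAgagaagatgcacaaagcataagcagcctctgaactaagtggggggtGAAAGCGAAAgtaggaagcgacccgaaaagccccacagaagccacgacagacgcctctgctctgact
Psme2: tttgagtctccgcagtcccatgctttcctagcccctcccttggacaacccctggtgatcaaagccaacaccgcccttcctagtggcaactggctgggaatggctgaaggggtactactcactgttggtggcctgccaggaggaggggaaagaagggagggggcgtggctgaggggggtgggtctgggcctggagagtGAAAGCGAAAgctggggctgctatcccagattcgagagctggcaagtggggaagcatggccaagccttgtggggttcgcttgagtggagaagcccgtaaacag
Psme1: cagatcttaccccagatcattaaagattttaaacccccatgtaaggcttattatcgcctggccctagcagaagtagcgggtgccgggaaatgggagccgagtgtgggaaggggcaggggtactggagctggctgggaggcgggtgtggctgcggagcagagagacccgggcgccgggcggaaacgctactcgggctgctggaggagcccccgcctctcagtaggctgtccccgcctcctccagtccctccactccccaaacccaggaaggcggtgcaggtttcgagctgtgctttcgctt

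Of the 44 genes, 40 matched an entry in the promoter table. Searched on both strands, the letters of the interferon-stimulated response element were present in 6 of the 40 windows (15%: Psma4, Psmb3, Psmb10, Psme2, Psmd7 and Psmg4) and in 3.92% of all 33469 windows of the table. The core of the antioxidant response element, TGACNNNGC, was in 7 of 40 (17.5%) against 12.1%, and CCAAT was in 20 of 40 (50%) against 37.5%. A match of letters is a description and no binding site. At P40 the differences of Psma4, Psmb3, Psmd7 and Psmg4 were 0.20, 0.12, -0.05 and 0.07, beside the falls of Psmb10 and Psme2 given above. Psme1, with no match in its window, had the largest fall of the 43 genes at that age (-0.45). The window does not cover elements further away, and the part of these letters in the rearing differences was not tested.

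The age comparisons use the same samples as the rearing comparisons, and neighbouring steps share a group, so their values are given side by side without a count across them. In socially reared rats 10 genes rose and 10 fell from P30 to P40, beside 12.5% and 14.4% of all probe sets. The split was 11 and 7 after quantile normalization. From P40 to P60, 7 rose and 23 fell (28.4% and 24.2% of all probe sets), and from P60 to P80, 23 rose and 8 fell (21.6% and 22.9%). Soc P60 held the lowest of the 8 group means for 14 of the 43 genes, and Soc P80 the highest for 11. This count was not made over all genes tested, so it is not read as particular to the proteasome genes. Psmg3 fell by 0.81 from P40 to P60 and rose by 0.69 from P60 to P80 (adjusted p = 1.32e-12 and 1.46e-10). Psme1 rose by 0.58 from P30 to P40 and fell by 0.60 to P60, and Psmb10 fell by 0.49 to P60 and rose by 0.68 to P80, all without overlap between the samples of the ages compared (adjusted p between 3.9e-13 and 1.92e-06). From P30 to P40 Psme2 rose by 0.30, Psma3 fell by 0.24 and Psmd5 fell by 0.20, each with overlap. The fall of Psmd5 did not pass without any 1 of 9 of the 12 arrays (adjusted p 0.0581 to 0.151) or without the signal filter (adjusted p = 0.0526). Against these, Psma3 and Psme4 rose from P40 to P60, by 0.33 and 0.30 (the second probe set of Psme4 stood at 0.01), and Psma6 and Psmd5 fell from P60 to P80, by 0.38 and 0.33.

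In isolated rats the steps were placed differently. From P30 to P40, 7 genes rose and 4 fell (11.6% and 10.3% of all probe sets), which became 6 and 9 after quantile normalization, and from P40 to P60, 10 rose and 4 fell (17.1% and 17.7%). From P60 to P80, 8 rose and 19 fell (27.8% and 26.2%). Psmd10 rose by 0.28 from P30 to P40, which did not pass with the Gapdh ratio as a covariate (adjusted p = 0.0981). Psmd14 fell by 0.32 from P40 to P60 on its brightest probe set and rose by 0.39 on the next. Psmd11 rose by 0.32 to P40, fell by 0.48 to P60 and rose by 0.61 to P80, and Psmb1 rose by 0.30 to P60 and fell by 0.47 to P80 (adjusted p between 3.3e-15 and 2.96e-06). Psmd8 fell by 0.41 and Psmc6 rose by 0.46 over the last step. The second probe set of Psmd11 did not pass at the first steps (0.06 and 0.02) and rose by 0.29 to P80. Psmd4 and Psmb10 each fell by 0.29 from P30 to P40, that of Psmb10 not passing without array 5 of Iso P30 or array 1 or 2 of Iso P40 (adjusted p = 0.0962, 0.0589 and 0.0643), and Psmc1 rose by 0.34 from P40 to P60.

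Over the whole span from P30 to P80, 11 genes rose and 10 fell in socially reared rats (26.2% and 23.5% of all probe sets), and 9 rose and 16 fell in isolated rats (25.7% and 22.4%). These comparisons share no samples. Psma1, Psma5, Psmb2, Psmc4, Psmd6 and Psmd5 fell in both rearings (6 genes, beside 11.4% of all probe sets), and Psme1, Psmd12, Psmd2 and Psmd7 rose in both (4 genes, beside 12.7%). Psmb2, a beta subunit, had the largest fall in social rats, from 9.0 ± 0.13 to 8.52 ± 0.15 (n = 6 each, 1.4-fold, adjusted p = 8.74e-09), fell by 0.34 in isolated rats (adjusted p = 2.52e-05), and showed no interaction of rearing with age (adjusted p = 0.337). Psmd12 rose by 0.36 and 0.30. Psmc5 and Psmc1 rose in social rats, by 0.39 and 0.38 without overlap, and did not pass in isolated rats. Psme2 rose in isolated rats by 0.68 (1.61-fold, adjusted p = 3.73e-08), with Psmd11 at 0.45 and Psmc6 at 0.43, while Psmd8, Psmd3 and Psmd4 fell by 0.36, 0.36 and 0.35. Psmc3 rose in social rats and fell in isolated rats, and Psmd11 did the reverse on its brightest probe set, while its other probe set rose in both rearings, by 0.26 and 0.36 (4.58% of all probe sets passed in opposite directions in this way).

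Genes of the ubiquitin system around the proteasome were read from a list of 42, of which 32 passed the signal filter. At P60, 8 rose and 13 fell, and at P80, 10 rose and 6 fell, that is 25% and 40.6% at P60 and 31.2% and 18.8% at P80, beside 23.7% and 29.3%, and 23.5% and 24.2%, of all probe sets. At P30, 5 rose and 5 fell (15.6% each, beside 7.61% and 12.3% of all probe sets). At P40, 3 rose and 7 fell (9.38% and 21.9%, beside 13.8% and 14.6%). Its members included Vcp, the ATPase that extracts ubiquitinated proteins and hands them to the proteasome, which fell at P30 (-0.30), P40 (-0.25) and P80 (-0.56) and rose at P60 (0.37), as Psmb1, Psma1 and Psma2 did. Nfe2l1, the transcription factor that drives proteasome genes when the proteasome is inhibited, rose at P30 (0.49) and fell at P40 (-0.40). Uchl1, a neuronal deubiquitinase, rose by 0.69 at P60, where the ubiquitin ligase Ube3a fell by 0.49 and the shuttle factor Ubqln2 by 0.26. At P80 Ufd1, a cofactor of Vcp, rose by 0.59, the conjugating enzyme Ube2n by 0.43, and Usp14, a deubiquitinase that sits on the regulatory particle, by 0.28. From P30 to P80, 12 of the 32 rose and 3 fell in social rats (37.5% and 9.38%, beside 26.2% and 23.5% of all probe sets). In isolated rats 16 rose and 4 fell (50% and 12.5%, beside 25.7% and 22.4%).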

How the data were processed

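Total RNA of each sample was labelled with biotin and hybridised to a 1-colour Affymetrix array, per the labels' protocols. The authors deposited log2 signals of 20304 probe sets on 47 arrays, computed with MAS5 per the submitters' processing notes; neither its version nor the scaling target is given in the sources used here. Arrays were already scaled (means trimmed by 2%: 157 to 161), so nothing further was applied. The number of arrays limits the precision.

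Arrays 3 and 4 of Iso P30 (root mean square distance 0.116, next closest pair within a group 0.175) were averaged. Probe sets with a mean at or above the 40th percentile (5.72) of 20249 that are not controls were kept. limma 3.58.1 (R 4.3.3) fitted 8 group means with a variance trend (38 residual degrees of freedom). Tests were two-sided, and p-values were adjusted by Benjamini-Hochberg separately for each of 13 comparisons. The fit was tested on simulated data. Symbols came from the platform annotation, and promoters from RefSeq on GRCr8, matched by gene ID. Figures used matplotlib 3.10.9 in Python 3.11.15.

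The genes and the lists beside them (ubiquitin system, interferon, cell type markers) were chosen with earlier results of these data known. Named in full were, per rearing comparison, the 4 largest rises and 4 largest falls among genes that passed, the 6 smallest p of the interaction, the 3 and 3 largest changes from P30 to P80, the 2 and 2 largest of other steps, every immunoproteasome gene, and up to 4 genes of each other list by p. Other genes are given by their value or count. Alternatives were all 47 arrays apart, quantile normalization, no signal filter, the Gapdh ratio as a covariate, a replicate block, the mean of each gene's probe sets, and each array left out.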

Additional observations from a re-analysis of the deposited data

Results flagged for a closer look

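For 28 proteasome genes the 8 groups were screened for a sample far from the others of its group by Dixon's test, and 18 of the 224 sets had one. Chance flags about 1 in 20. Samples far below the rest of their group, as log2 signals, were Psmd12 in Iso P60 array 1 (8.11, nearest 8.38), Psme1 in Soc P30 array 6 (7.25, nearest 7.48), Psma3 in Soc P40 array 1 (8.12, nearest 8.37) and in Iso P40 array 2 (8.42, nearest 8.58), and Psma4 in Soc P40 array 1 (8.16, nearest 8.45). The same held for Psmd4 in Soc P80 array 4 (7.48), Psmc1 in Iso P80 array 4 (8.504), Psmd5 in Soc P30 array 5 (7.12) and Iso P60 array 2 (6.91), and Psmb2 in Soc P30 array 6 (8.74) and Iso P30 array 6 (8.73). Far above the rest were Psmd14 in Iso P30 array 1 (9.11, nearest 8.73), Psmg4 and Psmg3 in Iso P80 array 5 (7.87 and 7.46), Psmd10 in Iso P60 array 1 (8.10), Psmd3 in Iso P60 array 2 (7.69), Psmc6 in Soc P30 array 5 (8.71) and Psma6 in Soc P80 array 6 (9.98).

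The rearing difference itself differed between ages in the interaction test of limma for Psmb1 (adjusted p = 1.98e-18), Psmd11 (2.9e-16), Psmc3 (1.56e-14), Psma6 (1.56e-14), Psma2 (9.6e-14) and Psmd6 (2.47e-13).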

How the results depend on the processing

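The counts of proteasome genes that passed in the 12 comparisons of 2 groups and in the interaction stayed within 1.5 times the reported ones under the alternatives run, with these exceptions. At P60, 18 passed with the Gapdh ratio as a covariate against 30, with fewer probe sets passing overall. From P30 to P40 in Soc, 13 passed without the signal filter against 20, and 13 to 19 with an array left out (13 without array 1 or array 4 of Soc P30). From P30 to P40 in Iso, 7 to 12 passed with an array left out against 11 (7 without array 5 of Iso P30). With an array left out, 9 to 13 passed at P30, 17 to 20 at P40, 29 to 32 at P60, 24 to 29 at P80 and 35 to 36 in the interaction. The cause was not tested. No shared deviation was seen between samples of the same replicate number. Over the 22 same-numbered pairs of social and isolated samples of an age, the correlation of their deviations ran from -0.0888 to 0.0857. A pairing that moves few probe sets would not show in this check. With the replicate block the counts were 13, 19, 31 and 27 from P30 to P80 and 36 for the interaction; it changed the call of no named gene. No named result changed direction. Of 100 named results, 12 no longer passed with the Gapdh covariate and 3 newly passed, 4 no longer passed as the mean of the gene's probe sets (Psmd14 at P30, 0.00 there, and from P40 to P60 in Iso, Psmc6 at P80, and Psme4 from P40 to P60 in Soc), and 2 did not without the filter. All 47 arrays apart and quantile normalization changed none of them.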
